A study of Mus musculus with 7 samples.

Results

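Homeostatic microglia are the resident immune cells of the brain in their surveying state. Here they were single nuclei chosen by a rule on their own counts. A barcode entered with at least 300 genes, under 5% mitochondrial UMIs (unique molecular identifiers, each standing for 1 captured transcript) and fewer than 3 UMIs of the neuronal genes Rbfox3 and Snap25 together. It also needed at least 3 of the 8 microglial markers Inpp5d, Csf1r, Cx3cr1, P2ry12, Runx1, Dock8, Ikzf1 and Ly86, with at least 15 of their UMIs per 10000. At most 1 of 12 genes of disease-associated microglia could be detected, and Clec7a of these 12 was not used here. The rule chose 1535 of 58286 barcodes, out of 2714 nuclei that passed the marker limits.

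The nuclei came from the subcortex, thalamus and hippocampus of mice of genotype 5xFAD +/-, a line with human amyloid transgenes that forms plaques. All groups carried these transgenes, so no plaque-free brain was compared. Each mouse had an AAV (a viral vector) by retro-orbital injection at 4 months of age and was 6 months old at collection. Control AAV was given to 3 mice (2 males, 1 female) and ANGPT2 AAV to 4 (2 males, 2 females). The labels give 2 batches. In batch 1 both groups had 1 male and 1 female, while batch 2 had 1 control mouse (male) and 2 ANGPT2 mice (1 of each sex). The promoter and serotype of the vectors are not given in the sources used here. Each library was taken as 1 mouse, so p-values measure the spread between these 7 libraries. ANGPT2 is secreted and binds TIE2 (gene Tek), a receptor on endothelium, and the comparison asked how the microglia of ANGPT2 AAV mice differed from those of control AAV mice. In all 1535 nuclei together the mouse gene Angpt2 had 4 UMIs and Tek had 4.

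Microglia hold their homeostatic state through signals from the tissue, among them TGF-beta, CSF1 and fractalkine, whose receptors are encoded by Tgfbr1, Csf1r and Cx3cr1. Near amyloid plaques they can take on a disease-associated state, in which lipid, lysosomal and phagocytic genes are raised and homeostatic genes are lowered. They can also answer type I and type II interferons. Interferon receptors act through JAK kinases and STAT factors, which switch on interferon response genes and MHC class I genes for presenting peptides to T cells.

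The members were spread over all libraries. Throughout, values per library are given for the controls in the order male of batch 1, female of batch 1, male of batch 2, and for ANGPT2 in the order male and female of batch 1, male and female of batch 2. The controls had 210, 168 and 322 members and the ANGPT2 libraries 150, 175, 168 and 342. Batch 2 was shallower, with a median of 823.5 to 1140 UMIs per member against 2161 to 2634 in batch 1. The members' summed UMIs ranged from 208967 to 615239 per library. Pairs of libraries shared 63 to 137 barcode sequences over all nuclei and at most 1 among the members. A doublet caller marked 113 members, which were kept and taken out in an alternative.

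The members carried the markers that chose them. Of the 8, a member had 3 in 169 nuclei, 4 in 259, 5 in 297, 6 in 307, 7 in 285 and 8 in 218. At the edge of the rule, the 169 nuclei with 3 markers lay just inside and 142 with 2 markers just outside. On the marker level, 12 members had 15 to 20 marker UMIs per 10000, and 9 nuclei with 10 to 15 lay just outside. Of the disease-associated genes, 786 members had none and 749 had 1, while 436 nuclei with 2 lay just outside. These genes are seen more often in deeper nuclei: the median UMIs by library ran from 781 to 2490 in members with none, from 876 to 2819 in members with 1 and from 960.5 to 3302 in nuclei with 2.

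The limit on disease-associated genes rested mostly on Apbb2 and Myo1e. Apbb2 gave 875 UMIs in the members and Myo1e 174, while the other 9 genes gave 2 (Spp1) to 50 (Csf1). Apbb2 UMIs were found in 23.3% to 45.7% of a library's members and in 30.5% to 59.2% of its oligodendrocytes, the myelinating cells used here as a comparison class. The classical genes of plaque-associated microglia were rare in the members, with 8 UMIs of Cst7, 7 of Itgax, 7 of Lpl and 3 of Gpnmb.

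Microglial genes outside the rule fitted the label. Mertk, a receptor for the uptake of dying cells, had UMIs in 64.0% to 96.0% of members and 1.34% to 5.61% of oligodendrocytes. For Siglech, a microglial lectin, these shares were 43.2% to 78.9% and 0.486% to 1.99%. The median depth of oligodendrocytes, 841 to 2786 UMIs, was close to that of the members. Markers of other cells were present in the members of every library. The 10 neuron markers summed to 4912 to 6008 CPM (UMI counts scaled to the same total in each library) in controls and 4894 to 5165 CPM in ANGPT2 libraries. In oligodendrocytes they summed to 3287 to 4633 CPM, and the 8 markers of the rule summed to 6903 to 8676 CPM in the members. The 9 oligodendrocyte markers summed to 2104 to 3235 CPM in controls and 1665 to 4052 CPM in ANGPT2 libraries, and the 7 astrocyte markers to 1266 to 3677 and 1162 to 3970 CPM. The 10 border macrophage markers summed to 287 to 598 CPM in controls and 172 to 459 CPM in ANGPT2 libraries. The part of these markers in the values below was not tested, except where nuclei were left out. Of 10 monocyte and neutrophil markers, S100a8, S100a9, Chil3, Ear2, Ly6g and Retnlg were at 0. The choroid plexus gene Ttr ranged from 82.8 to 1465 CPM, highest in the ANGPT2 female of batch 1, and had UMIs in 9.91% to 96.8% of oligodendrocytes.

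The number of homeostatic microglia did not differ detectably between the groups. They made up 5.47%, 6.18% and 6.28% of the nuclei that passed the filters in controls and 4.72%, 4.19%, 5.28% and 8.51% in ANGPT2 libraries. The groups overlapped, with 3 ANGPT2 libraries below every control and 1 above. The means were 5.98% ± 0.442 (SD, n = 3) and 5.67% ± 1.94 (SD, n = 4), a difference of -0.306 percentage points (two-sided exact permutation test over libraries, p = 0.857). The smallest p this test can give is 0.0286.

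The balance between homeostatic and other microglia was also within the spread of the libraries. Each microglial nucleus was thinned at random to 600 UMIs, since a gene is detected more often at greater depth. At that depth the share with at most 1 disease-associated gene was 86.1%, 69.3% and 77.2% of microglia in controls and 80.6%, 83.1%, 84.3% and 73.2% in ANGPT2 libraries. Every ANGPT2 value lay inside the range of the controls. The means were 77.5% ± 8.39 (SD, n = 3) and 80.3% ± 4.99 (SD, n = 4), with p = 0.6 in the exact permutation test. Without thinning they were 53.2% and 59.9%, with p = 0.4 in the exact permutation test. Thinning left out 42, 1 and 11 microglia of batch 2 and 0 of batch 1.

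Gene levels in the members were compared on UMI counts summed per library, with edgeR's quasi-likelihood test over 7269 genes and a Benjamini-Hochberg adjusted p under 0.05 as the threshold. No gene passed (0%), against 1 with DESeq2 and 3 (Pcdh15, Cdh18 and Dscam, all lower) with the batch as a block. At an unadjusted p under 0.05, 209 genes were lower in ANGPT2 libraries (2.88%) and 120 were higher (1.65%). In 195 genes (2.68%) every ANGPT2 library lay below every control, and in 191 (2.63%) every one lay above. No single gene below is therefore a called change. Log2 changes are ANGPT2 over control, with the standard error (SE) of the fit, and levels by library are CPM scaled with the fit's TMM factors.

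Interferon response genes were lower in the homeostatic microglia of ANGPT2 AAV mice as a group of genes, by about the same median in each kind of microglia. Of 63 genes on the list, 61 were in the matrices and 23 had enough counts to be tested. Of these, 22 were lower, with a median log2 change of -0.62, where the median over the 7257 tested genes outside the rule was 0.01 and 49.2% were lower. At an unadjusted p under 0.05, 11 of the 23 were lower (47.8%) and 0 higher, beside 2.88% and 1.65% of all genes. Every ANGPT2 library lay below every control in 6 of the 23 (26.1%), beside 2.68%. Only Ifi35 of the 23 was higher, at 0.42 (SE 0.38), and it was singled out after its value was seen. The median was -0.83 in batch 1 and -0.39 in batch 2.

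Sp100 (chromosome 1, 85649988 to 85709998, GRCm38), a protein of PML nuclear bodies, had 98.6, 105 and 119 CPM in controls and 55.3, 53.6, 62.8 and 50.4 CPM in ANGPT2 libraries. Both groups were tight and did not overlap, for a log2 change of -0.95 (SE 0.23, adjusted p = 0.558 in edgeR). Sp100 was nearly absent from oligodendrocytes, with a UMI in 0.132% of control nuclei, against 14.7% of control members and 6.71% of ANGPT2 members.

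Slfn8 (chromosome 11, 83002158 to 83020810), a member of the Schlafen family of interferon-induced genes, had 138, 141 and 122 CPM in controls. The ANGPT2 libraries had 73.7, 74.6, 36.6 and 97.2 CPM, all below the controls, for a log2 change of -0.88 (SE 0.24, adjusted p = 0.621 in edgeR). Xaf1, an interferon-induced partner of the apoptosis inhibitor XIAP, had 46.7, 52.3 and 59.3 CPM against 12.3, 30.3, 26.2 and 28.8 CPM (log2 change -1.07, SE 0.33). Trim25, a ubiquitin ligase in the RIG-I pathway, had 34.6, 52.3 and 34.9 CPM against 15.4, 23.3, 20.9 and 25.2 CPM (log2 change -0.91, SE 0.35). Xaf1, Trim25 and Trim30d were named after their values were seen, as further genes of the list in which the groups did not overlap.

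**Figure D1:**
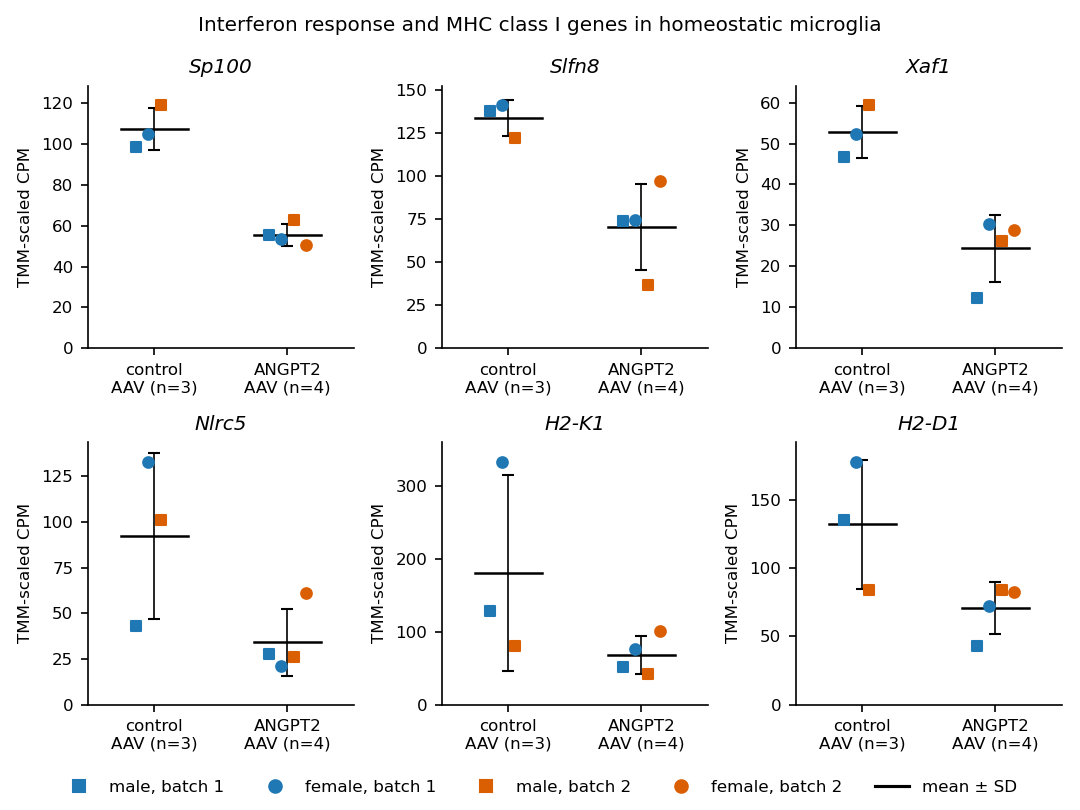
Level of 6 genes in homeostatic microglia by library, in CPM scaled with TMM factors (y axis, from 0), for control AAV and ANGPT2 AAV. Squares are males and circles females, colours are batches, and bars give the mean and SD (n = 3 and n = 4). Groups do not overlap for Sp100, Slfn8 and Xaf1. They overlap for Nlrc5, H2-K1 and H2-D1, where the control female of batch 1 is the highest library.

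The other interferon genes had few transcripts in nuclei. Of the 38 listed genes under the count filter, Irf7 had 25 UMIs in all members (19 in controls, 6 in ANGPT2). Ifit3 had 14 (9 and 5), Isg15 had 12 (9 and 3) and Ifit1 had 5 (5 and 0). The only ones of the 38 with more UMIs in ANGPT2 libraries were Irf9 with 61 (27 and 34), Lgals3bp with 59 (29 and 30), Phf11b with 29 (12 and 17) and Oasl1 with 3 (1 and 2). Ifi44 had 2 (1 and 1), Ifi44l had 0, and the rest had fewer in ANGPT2 libraries. Controls and ANGPT2 libraries had 1336350 and 1334563 member UMIs in all, but the batches entered these totals unequally. In batch 1 the control male and female had 615239 and 414532 member UMIs, and the ANGPT2 male and female 355654 and 455860. The pooled counts thus mix batch with treatment and were not tested. For Irf7, Ifit3, Isg15 and Ifit1, most UMIs came from the control libraries of batch 1.

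The upstream part of the pathway differed less. Of 19 tested receptors, kinases and other signalling genes, 6 were higher and 13 lower, with 0 at an unadjusted p under 0.05 and a median of -0.14. For Jak2, a kinase of the interferon-gamma receptor, the log2 change was 0.43 (SE 0.22, adjusted p = 0.991 in edgeR). Ptpn6, the phosphatase SHP-1 that damps such signals, had -0.60 (SE 0.30, adjusted p = 0.991 in edgeR).

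MHC class I genes were also lower, mainly in batch 1. Of 13 tested genes 12 were lower, 7 of them at an unadjusted p under 0.05 (53.8%, beside 2.88% of all genes), with a median log2 change of -0.75. In 3 of the 13 (23.1%, beside 2.68% of all genes), Erap1, H2-T23 and Pdia3, no ANGPT2 library reached the lowest control. Calr had a log2 change of 0.01. The median was -0.66 in batch 1 and -0.27 in batch 2, and leaving out the batch 1 control female gave -0.50, with 10 of 12 tested genes lower.

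Nlrc5 (chromosome 8, 94434356 to 94527272), the transactivator of MHC class I genes, had 43.2, 133 and 101 CPM in controls and 27.6, 21.0, 26.2 and 61.2 CPM in ANGPT2 libraries. The groups overlapped through the ANGPT2 female of batch 2, and the log2 change was -1.42 (SE 0.41, adjusted p = 0.621 in edgeR). H2-K1 (chromosome 17, 33996017 to 34000347), a classical heavy chain, had 128, 334 and 80.2 CPM against 52.2, 76.9, 41.9 and 101 CPM, a log2 change of -1.38 (SE 0.38, adjusted p = 0.621 in edgeR). Its value was -1.62 in batch 1, -0.27 in batch 2 and -0.63 when that control female of high H2-K1 was left out. With batch and sex both as terms, H2-K1 (adjusted p = 0.00824 in edgeR) and Nlrc5 (adjusted p = 0.0194 in edgeR) were among 12 genes that passed.

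H2-D1, the other classical heavy chain measured, had 135, 178 and 83.7 CPM against 43.0, 72.3, 83.8 and 82.8 CPM, a log2 change of -0.95 (SE 0.28). Its batches differed, with -1.38 and -0.01. Psmb9, a subunit of the immunoproteasome, had 45.0, 36.6 and 24.4 CPM against 15.4, 11.7, 31.4 and 3.6 CPM, a log2 change of -1.37 (SE 0.47). B2m, the light chain, had 129.7, 175 and 90.6 CPM against 123, 97.9, 89.0 and 140.5 CPM, with overlapping groups and a log2 change of -0.24 (SE 0.24). The H2 genes are close paralogs, as are Trim30a and Trim30d, and counting could move UMIs between them, so their separate values are uncertain.

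To show what the promoters of these genes share, RefSeq windows (GRCm38.p6) were searched for the interferon-stimulated response element, spelled here as GAAA, any 2 bases and GAAA again, on both strands of the 250 bases before each start site. Of 27025 genes with a window, 936 held it (3.46%), and of the 5773 tested genes with a window, 175 did (3.03%). Windows were matched for 16 of the 23 tested interferon genes, under the 80% needed for a share, so a share of that list is void. Of those 16, Slfn8, Trim30a, Trim30d, Stat2 and Ddx60 held the element. Of 11 matched MHC class I genes, 2 held it (18.2%), H2-T23 and B2m, and of 29 matched homeostatic genes 0 did, where 29 of 38 is again too few for a share. A match is a description of letters. Capitals mark the element or its reverse complement in stretches of 60 bases, printed along the gene's own strand for 6 of these 7 genes:
Slfn8, chr11:83020824-83020883, minus strand: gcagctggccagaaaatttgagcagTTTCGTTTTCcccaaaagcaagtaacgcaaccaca
Trim30a, chr7:104465195-104465254, minus strand: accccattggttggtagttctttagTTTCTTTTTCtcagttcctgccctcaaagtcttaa
Trim30d, chr7:104507856-104507915, minus strand: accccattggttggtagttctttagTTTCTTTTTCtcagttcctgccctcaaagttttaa
Stat2, chr10:128270251-128270310, plus strand: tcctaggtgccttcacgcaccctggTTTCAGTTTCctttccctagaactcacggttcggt
H2-T23, chr17:36032791-36032850, minus strand: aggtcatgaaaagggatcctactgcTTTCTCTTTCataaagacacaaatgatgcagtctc
B2m, chr2:122147523-122147582, plus strand: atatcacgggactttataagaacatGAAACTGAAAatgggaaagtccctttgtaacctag
The stretches of Trim30a and Trim30d are nearly the same sequence, and both genes lie on chromosome 7. The element ends 39 bases before 1 start site of Slfn8 and 127 before another. It ends 27 bases before the start site in Trim30a, 32 in Trim30d, 213 in Stat2, 115 in H2-T23 and 130 in B2m. The log2 changes of these genes were -0.88 (SE 0.24) for Slfn8, -0.58 (SE 0.22) for Trim30a, -0.61 (SE 0.25) for Trim30d, -0.68 (SE 0.36) for Stat2, -0.87 (SE 0.32) for H2-T23 and -0.24 (SE 0.24) for B2m. Genes with the element thus ranged from nearly no difference (B2m) to some of the lower values of their lists.

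UMIs of interferon genes were spread over many nuclei. They were found in 69.9% to 95.2% of a library's members, and the 5 members with the most held 9.64% to 20.5% of them. To set depth equal, members were thinned to 600 UMIs, which left out 37, 1 and 8 members of batch 2. The share with UMIs of 2 or more interferon response genes was then 28.6%, 35.7% and 35.1% in controls and 20.0%, 20.0%, 17.4% and 24.3% in ANGPT2 libraries. All ANGPT2 libraries lay below all controls, in both batches and both sexes.

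The means were 33.1% ± 3.96 (SD, n = 3) and 20.4% ± 2.85 (SD, n = 4), a difference of -12.7 percentage points. The two-sided exact permutation test over libraries gave p = 0.0286, the smallest it can give. The exact permutation test within batches gave p = 0.0556, again the smallest possible. The difference was -12.1 points in batch 1 and -14.3 in batch 2. With 1 or more genes the mean shares were 64.9% in controls and 51.3% in ANGPT2 libraries, a difference of -13.6 points (exact permutation p = 0.0571). With 3 or more they were 17.6% and 6.1%, a difference of -11.5 points (exact permutation p = 0.0571). Most of the gap thus lay in members with 3 or more of these genes. Unthinned shares with 2 or more genes, which carry the depth gap between batches, were 73.6% and 51.6% on average (exact permutation p = 0.171). Oligodendrocytes thinned to the same depth give the background of stray transcripts and of their own expression. Their share with 2 or more genes was 1.73%, 4.25% and 2.77% in controls. In ANGPT2 libraries it was 1.22%, 1.78%, 1.31% and 2.31%, with overlapping groups, and this difference was not tested.

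**Figure D2:**
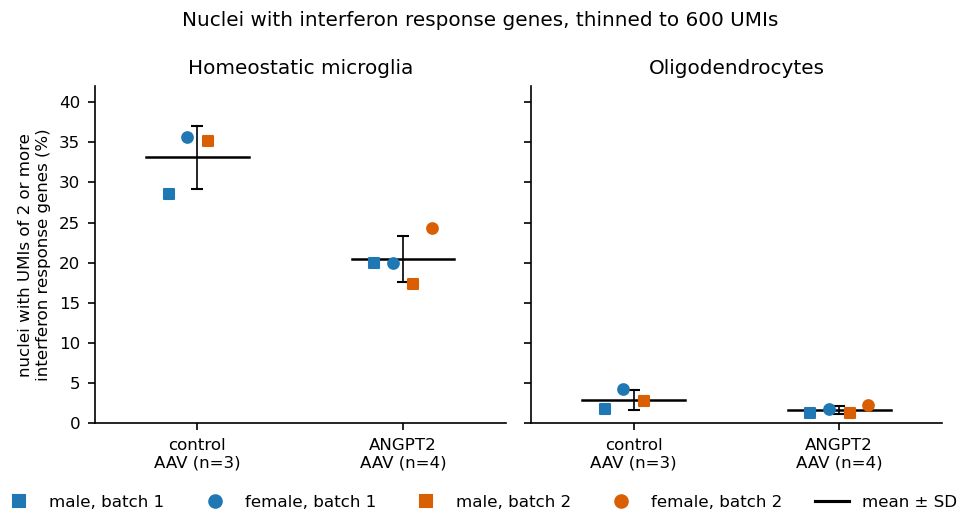
Percent of nuclei with UMIs of 2 or more interferon response genes after thinning each nucleus to 600 UMIs (y axis), by library, in homeostatic microglia (left) and oligodendrocytes (right). Bars give the mean and SD. The 4 ANGPT2 libraries sit between 17.4% and 24.3% in homeostatic microglia, below the controls at 28.6% to 35.7%, and oligodendrocytes stay at or under 4.25%.

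Markers of other immune cells moved with these genes. The 15 lymphocyte markers summed to 127 to 265 CPM in controls and 57.3 to 116 CPM in ANGPT2 libraries, with all 15 detected and no overlap of the groups, and to 165 to 258 CPM in oligodendrocytes. Members with 2 or more lymphocyte markers numbered 16 in controls and 6 in ANGPT2 libraries, and those with 2 or more border macrophage markers 22 and 7. Without these nuclei 21 of 21 tested interferon genes were lower (median -0.60), as were 11 of 12 MHC class I genes (median -0.51). With called doublets and nuclei with oligodendrocyte precursor markers removed as well, 17 of 18 interferon genes were lower (median -0.62), and the share with 2 or more such genes was 32.9% in controls and 20.8% in ANGPT2 libraries (exact permutation p = 0.0286). These removals were chosen in part after seeing the data.

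The same genes were lower in the other microglia, those with 2 or more disease-associated genes. There the median over 23 interferon genes was -0.59, with 22 lower, and over 12 MHC class I genes -0.37, with 12 lower. The difference of the ANGPT2 effect between homeostatic and other microglia was tested in 1 fit over 8500 genes with the library as a block, and 0 genes passed (0%), against 13 with the batch added as a block. For the interferon list the median difference was 0.01, with 0 of 23 genes at an unadjusted p under 0.05. Oligodendrocytes had a median of -0.36 over 15 interferon genes, with 13 lower, and of -0.27 over 11 MHC class I genes, with 9 lower. Both classes share the libraries, so these values are not independent.

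**Figure D3:**
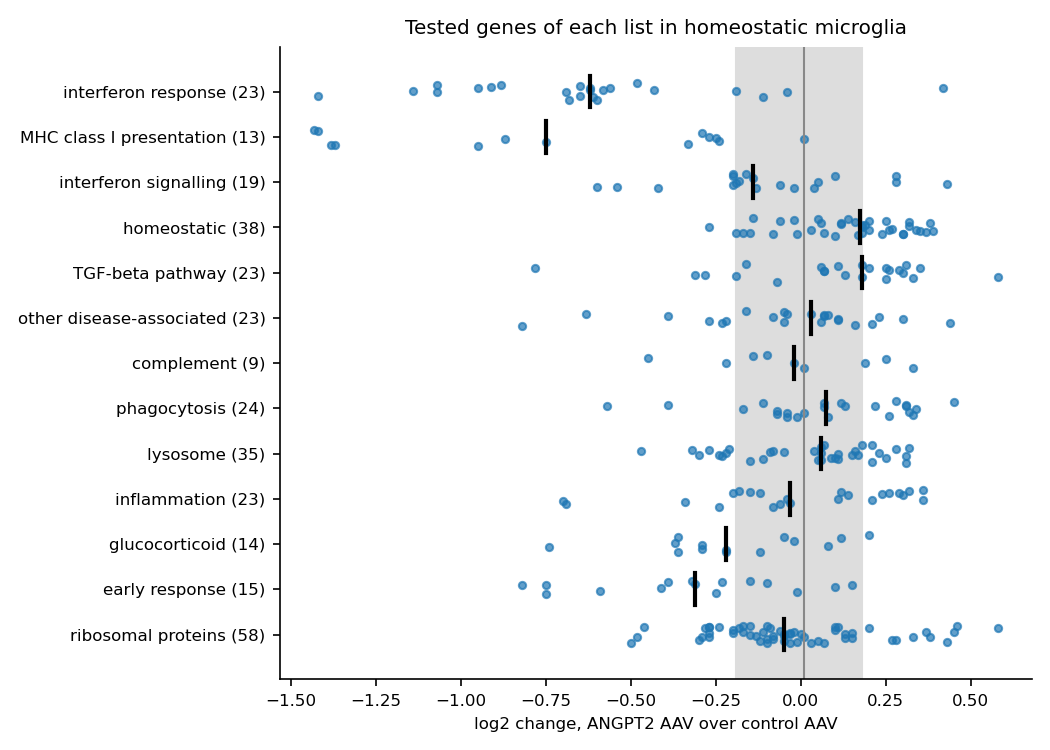
Log2 change, ANGPT2 AAV over control AAV, of each tested gene (points) in 13 gene lists, with the number tested in brackets. Black bars are medians, and the grey band and line give the middle 50% and the median (0.01) of all genes tested. Medians of interferon response (-0.62) and MHC class I genes (-0.75) lie outside the band, as do those of glucocorticoid (-0.22) and early response genes (-0.31).

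Homeostatic genes that the rule did not use were slightly higher, mostly in batch 2. Of 38 listed and tested genes 29 were higher and 9 lower, with a median log2 change of 0.18. None had an unadjusted p under 0.05 in either direction. In 2 of them (5.26%, beside 2.63% of all genes) every ANGPT2 library lay above every control. The median was 0.00 in batch 1 and 0.42 in batch 2. Without the nuclei that carry other cells' markers and the called doublets it was 0.08.

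Tgfbr1 (chromosome 4, 47353222 to 47414931), the TGF-beta type I receptor on which the homeostatic state depends, had 2529, 2553 and 1994 CPM in controls and 2893, 2965, 3047 and 3152 CPM in ANGPT2 libraries. The control male of batch 2 was the lowest library, and the groups did not overlap. The log2 change was 0.35 (SE 0.17, adjusted p = 0.991 in edgeR). Olfml3, a secreted microglial protein and the other gene without overlap, had 98.6, 112 and 69.7 CPM against 123, 117, 147 and 115 CPM (log2 change 0.38, SE 0.22). It was named after its values were seen.

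The most abundant homeostatic genes followed the same pattern with overlapping groups. Tanc2, a scaffold protein, had 3018, 2675 and 2928 CPM against 3916, 2765, 4188 and 4228 CPM (log2 change 0.39, SE 0.19). Mertk had 1865, 1873 and 1523 CPM against 2516, 1811, 2220 and 2334 CPM (0.34, SE 0.18). Mef2c, a transcription factor of microglia, had 1427, 1223 and 1345 CPM against 1594, 1394, 1639 and 2042 CPM (0.32, SE 0.18). In Tanc2 and Mertk 3 of 4 ANGPT2 libraries lay above every control, with the female of batch 1 within their range.

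Plxdc2, a membrane protein with the highest level of the list, had 4186, 3203 and 5148 CPM against 4300, 4047, 5801 and 7409 CPM (log2 change 0.37, SE 0.23), and was 0.17 without the ANGPT2 female of batch 2.

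**Figure D4:**
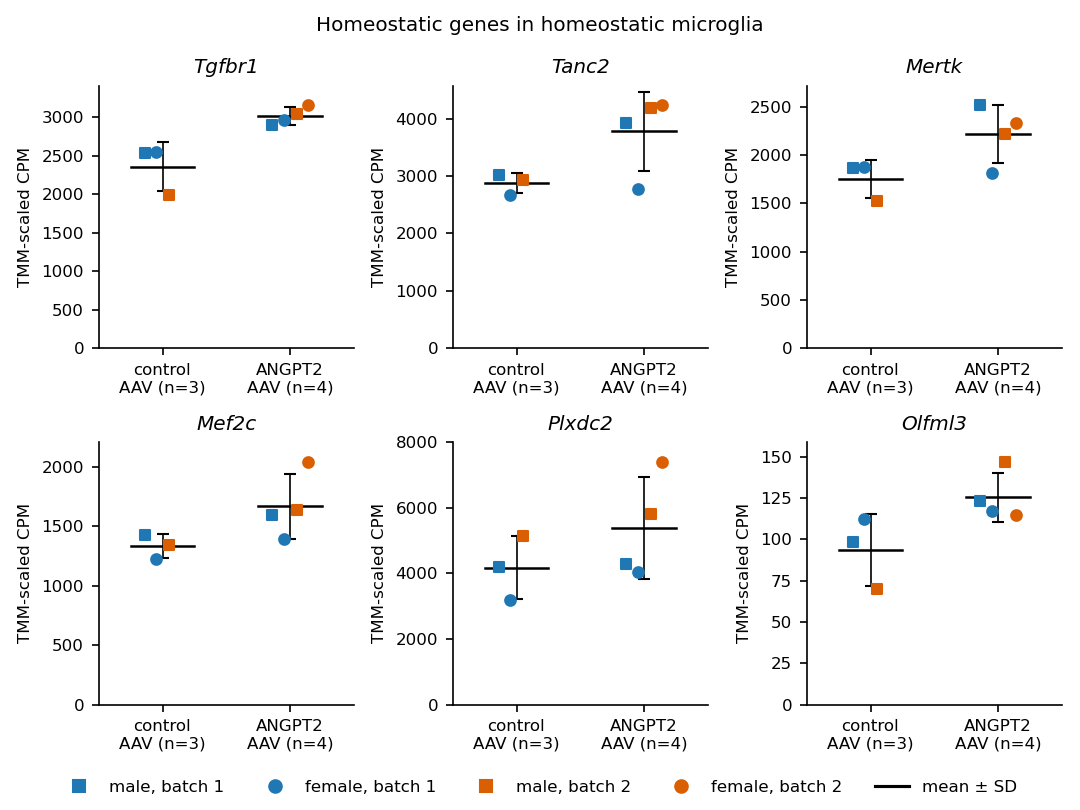
Level of 6 homeostatic genes in homeostatic microglia by library, in CPM scaled with TMM factors (y axis, from 0), for control AAV and ANGPT2 AAV. Symbols are as in the plot of interferon genes, and bars give the mean and SD. Groups do not overlap for Tgfbr1, at 1994 to 2553 in controls and 2893 to 3152 in ANGPT2 libraries, and for Olfml3, and they overlap for the other 4 genes.

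Of the TGF-beta pathway, 17 of 23 tested genes had values above 0 and 6 below. At an unadjusted p under 0.05, 0 were higher and 1 was lower (4.35%), beside 1.65% and 2.88% of all genes. The median was 0.18, with 0.03 in batch 1, 0.28 in batch 2 and 0.06 with batch and sex as terms. The gene that differed most lay on the other side. Nrros (chromosome 16, 32142785 to 32165594), which holds latent TGF-beta on the microglial surface for activation, had 239, 159 and 254 CPM in controls and 119.8, 152, 120.4 and 108 CPM in ANGPT2 libraries. The groups did not overlap, although the ANGPT2 female of batch 1 came close to the lowest control. The log2 change was -0.78 (SE 0.21, adjusted p = 0.558 in edgeR), with -0.52 in batch 1 and -1.12 in batch 2. Itgav, a subunit of the integrins that release TGF-beta, had 0.31 (SE 0.18).

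Other programmes of microglia showed medians within 0.1 of 0, with at most 2 genes of a list at an unadjusted p under 0.05 in 1 direction. Of 23 disease-associated genes that the rule did not use, 12 were higher and 11 lower (median 0.03), with 1 lower at an unadjusted p under 0.05 (4.35%, beside 2.88% of all genes). That gene was Cd83, an activation marker, with 72.6, 88.8 and 97.6 CPM against 76.8, 51.3, 15.7 and 36.0 CPM (log2 change -0.82, SE 0.32). Since members were chosen for few disease-associated genes, this list could differ little here.

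Complement genes were 4 higher and 5 lower of 9 (median -0.02). C1qa, a chain of the C1q starter, had a log2 change of -0.22 (SE 0.20). Of 24 phagocytic genes 15 were higher and 9 lower (median 0.07), and Elmo1, an engulfment adaptor, had 2797, 3096 and 2712 CPM against 3228, 3091, 4021 and 3926 CPM (0.31, SE 0.18). Lysosomal genes were 22 higher and 13 lower of 35 (median 0.06), with 0.32 (SE 0.18) for Lgmn and -0.47 (SE 0.24) for Ctsc, both lysosomal proteases. Of 24 lipid genes 14 were higher and 10 lower (median 0.03). Lpcat2, a phospholipid enzyme, had 0.41 (SE 0.20), the cholesterol exporter Abca1 had 0.28 (SE 0.17) and the cholesterol synthesis gene Cyp51 had -0.94 (SE 0.39). None of these genes passed the threshold.

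Inflammatory genes were 11 higher and 12 lower of 23 (median -0.03). Nlrp3, the inflammasome sensor, had 77.8, 65.3 and 34.9 CPM against 33.8, 44.3, 26.2 and 43.2 CPM (log2 change -0.70, SE 0.31), with -0.79 in batch 1 and -0.04 in batch 2. P2rx7, an ATP-gated channel upstream of that inflammasome, had 296, 261 and 227 CPM against 187, 191, 204 and 180.1 CPM. No ANGPT2 library reached the lowest control, and the log2 change was -0.47 (SE 0.17, adjusted p = 0.976 in edgeR). Of 11 tested purinergic genes 5 were higher and 6 lower (median -0.04). P2rx7 was the 1 at an unadjusted p under 0.05 (9.09%, beside 2.88% of all genes lower at that p).

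Of 32 genes near human Alzheimer risk loci 18 were higher and 14 lower (median 0.05). Sorl1, a sorting receptor for the amyloid precursor protein, had 185, 167 and 167 CPM against 79.9, 119, 120.4 and 158 CPM (log2 change -0.55, SE 0.21). Ms4a6b, a membrane protein of the Ms4a cluster, had 171, 162 and 87.1 CPM against 52.2, 79.3, 83.8 and 93.6 CPM (-0.91, SE 0.26), a difference present in batch 1 (-1.30) and not in batch 2 (0.02). Rin3, a regulator of endocytosis, was higher, with 121, 88.8 and 105 CPM against 184, 145, 126 and 122 CPM (0.46, SE 0.21). Picalm, a clathrin adaptor, had 1147, 1453 and 850.5 CPM against 1256, 1466, 1681 and 1693 CPM (0.40, SE 0.20). The adjusted p in edgeR was 0.621 for Ms4a6b and 0.991 for the others.

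Lists tied to stress and handling had medians below 0 with few genes at an unadjusted p under 0.05. Of 15 immediate early and heat shock genes 13 had values below 0 (median -0.31), 1 of them at that p (6.67%, beside 2.88% of all genes). Their median was 0.03 in members with no disease-associated gene. Of 14 glucocorticoid genes 11 had values below 0 (median -0.22) and 0 reached that p, with medians of -0.17 in batch 1, 0.00 in batch 2 and 0.06 when the batch 1 control female was left out. Jun, an immediate early factor, had 46.7, 36.6 and 31.4 CPM against 24.6, 18.7, 26.2 and 21.6 CPM (log2 change -0.82, SE 0.34), with no overlap. Their part in the lower interferon and MHC values was not tested. In the list of angiopoietins, their receptors and integrins, 12 genes were tested, and 11 had values above 0 (median 0.23). At an unadjusted p under 0.05 there were 0, and the medians were -0.02 in batch 1 and 0.33 in batch 2. Angpt1, Angpt2, Angpt4, Tek and Tie1 were under the count filter, so these values do not cover angiopoietins or TIE receptors. Ribosomal protein genes were 22 higher and 36 lower of 58 (median -0.05). Too few genes could be tested for MHC class II, with 2 (median -0.39), and for proliferation, with 3 (median -0.37).

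Of the 12 lower genes with the smallest p, 7 are described here: Pcdh15, Cdh18, Dscam, Nxph1, Hs3st4, Fam155a and Vcan. Neurons or oligodendrocyte precursors, the proliferating cells of that lineage, are known to express these genes. Pcdh15 (chromosome 10, 73099342 to 74649737), a protocadherin, had 228, 481 and 373 CPM in controls and 129, 149, 152 and 112 CPM in ANGPT2 libraries. The groups did not overlap, and the log2 change was -1.40 (SE 0.23, adjusted p = 0.0768 in edgeR). Cdh18, a cadherin, had 147, 172 and 139 CPM against 55.3, 53.6, 62.8 and 82.8 CPM (-1.28, SE 0.22, adjusted p = 0.0768 in edgeR). Dscam, an adhesion molecule, had 195, 269 and 202 CPM against 92.1, 62.9, 131 and 112 CPM (-1.22, SE 0.23).

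The UMIs of these genes were concentrated in few nuclei to different degrees. In controls, the 5 members with the most UMIs in each library held 82.1% of all Vcan UMIs, 72.1% of Nxph1, 56.9% of Dscam, 50.1% of Pcdh15, 38.7% of Cdh18, 34.1% of Fam155a and 33.3% of Hs3st4. In ANGPT2 libraries they held 100.0% of Vcan, 34.2% of Nxph1, 44.2% of Dscam, 36.1% of Pcdh15, 31.6% of Cdh18, 17.9% of Fam155a and 41.8% of Hs3st4. Vcan had only 15 UMIs in ANGPT2 members, found in 1.32% of them, against 67 in controls. Its share in ANGPT2 libraries was nearly fixed by that low count and cannot be set against the controls. Pcdh15 had a UMI in 23.7% of control and 14.5% of ANGPT2 members, and Fam155a in 42.9% and 34.9%. The 5 precursor markers Pdgfra, Cspg4, Vcan, Lhfpl3 and Tnr were all detected and summed to 398, 649 and 590.4 CPM in controls and 163, 129, 517 and 181 CPM in ANGPT2 libraries. The ANGPT2 male of batch 2 lay among the controls. Members with 2 or more of them numbered 11, 13 and 8 in controls and 5, 7, 5 and 2 in ANGPT2 libraries.

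Without these 51 nuclei the values of 6 of these genes shrank, while interferon genes kept a median of -0.69, with 18 of 21 tested genes lower. Nxph1, a neurexin ligand, went from -1.22 to 0.09, Dscam from -1.22 to -0.22, Pcdh15 from -1.40 to -0.78 and Fam155a, a channel subunit, from -0.80 to -0.49. Cdh18 went from -1.28 to -0.96 and Hs3st4, a heparan sulfate enzyme, from -1.19 to -1.02. Sp100 was -0.96, Slfn8 -1.01, Nlrc5 -1.47 and H2-K1 -1.44 without them. With the library as a block, Dscam (difference of the log2 changes -1.52) and Pcdh15 (-1.34) were the 2 genes of 11268 (0.0177%) whose ANGPT2 effect differed between the members and oligodendrocytes (adjusted p = 0.0219 for both in edgeR). With the batch added as a block 15 passed, and without the control female, the ANGPT2 male or the ANGPT2 female of batch 1 none did.

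**Figure D5:**
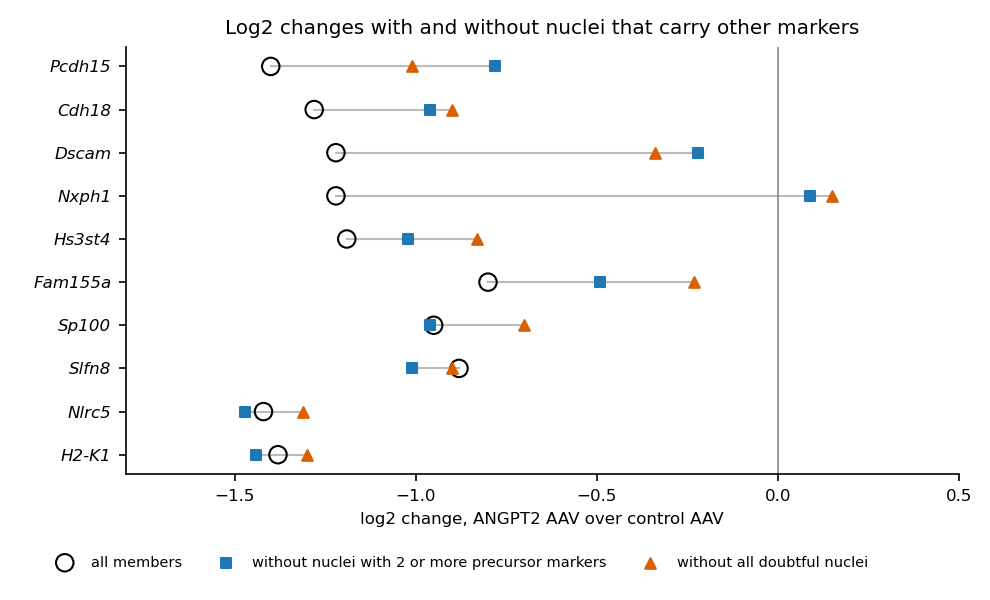
Log2 change, ANGPT2 AAV over control AAV (x axis), of 6 genes of precursors or neurons and 4 interferon or MHC class I genes (rows). Circles use all 1535 members, squares leave out members with 2 or more oligodendrocyte precursor markers, and triangles also leave out called doublets and nuclei with lymphocyte or border macrophage markers. Nxph1 moves from -1.22 to 0.09, while Sp100 is -0.95 and -0.96.

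Of the 12 higher genes ranked first by p, 7 are described here, and none passed the threshold. Pde1b, a calcium-activated phosphodiesterase, had 24.2, 36.6 and 34.9 CPM in controls and 43.0, 88.6, 115 and 72.0 CPM in ANGPT2 libraries, without overlap (log2 change 1.32, SE 0.34). Dlc1, a brake on the GTPase RhoA, had 171, 138 and 132 CPM against 215, 259, 309 and 213 CPM, again without overlap (0.72, SE 0.19). Ptprm, an adhesion phosphatase, had 394, 470.3 and 533 CPM against 700.3, 627, 722 and 821 CPM (0.63, SE 0.18). Its levels were spread over many nuclei, with a UMI in 45.3% of control and 54.1% of ANGPT2 members.

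Arsb, a lysosomal sulfatase, had 296, 246 and 342 CPM against 513, 343, 503 and 533 CPM (log2 change 0.68, SE 0.20). The ANGPT2 female of batch 1 lay close to the highest control. Adamts16, a matrix protease, had 36.3, 44.4 and 90.6 CPM against 101, 88.6, 147 and 176 CPM (1.22, SE 0.32). Rab10, a vesicle GTPase, had 138, 141 and 192 CPM against 237, 287, 183 and 267 CPM (0.67, SE 0.20), and Creb5, a transcription factor, had 76.1, 34.0 and 69.7 CPM against 141, 81.6, 83.8 and 155 CPM (0.92, SE 0.30). In the other microglia the log2 changes of these 7 genes were 0.49 (SE 0.21) for Dlc1, 0.45 (SE 0.23) for Arsb, 0.36 (SE 0.20) for Ptprm, 0.25 (SE 0.33) for Adamts16, 0.13 (SE 0.22) for Creb5, 0.03 (SE 0.34) for Pde1b and -0.14 (SE 0.19) for Rab10. The tests of the difference between homeostatic and other microglia gave an unadjusted p of 0.00352 for Pde1b and 0.000155 for Rab10 in edgeR, and neither passed after adjustment (0.189 for Rab10).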

How the data were processed

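The values in the deposited matrices are raw UMI counts, by gene and barcode. Per the submitters' processing notes the authors used Cell Ranger 6.1.2 and the builds mm10 and GRCm38. Other settings are not given in the sources used here. Nuclear RNA was counted, which holds many unspliced transcripts and few short-lived ones. Sums per library went into edgeR 4.0.16 (R 4.3.3; TMM factors, filterByExpr with minimum count 10 and total 15, treatment as the only term), with DESeq2 1.42.0 as an alternative. Coordinates come from GENCODE release M21 (GRCm38). Named genes are the 12 with the smallest p in each direction that have a gene symbol and are not in the rule, the 4 with the smallest p of each list and the 10 homeostatic genes with the highest level. Genes named outside this are marked, or hold the searched element. The members, the 19 lists and the tests were chosen with earlier results of these data known, among them lower interferon and antigen presentation genes in microglia, so those are no independent support. Permutation tests were exact over libraries. The batch label marks which libraries belong together. Deviations from the group means, for pairs of a control and an ANGPT2 library, correlated at -0.109 to 0.189 within a batch (median 0.0359) and -0.145 to 0.112 between batches. Deviations within a group cancel out, so pairs in the same group tend to be negative. ANGPT2 pairs had -0.0772 and -0.277 within a batch and -0.436 to -0.384 between batches. Control pairs had -0.368 within a batch and -0.495 and -0.626 between batches. On simulated data with these 7 libraries, the edgeR test over 7269 genes recovered 54 of 100 genes with 2-fold and 89 of 100 with 4-fold changes. Some genes of the lists are counted in them but not reported here by name.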

Additional observations from a re-analysis of the deposited data

Results flagged for a closer look

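In 3 of 54 genes, 1 of the 4 ANGPT2 libraries stood far from the other ANGPT2 libraries by Dixon's test, and chance alone flags about 1 in 20 groups. Nlrc5 was 61.2 CPM in the ANGPT2 female of batch 2, against 21.0 to 27.6 CPM in the others. Vcan, an oligodendrocyte precursor marker, was 41.9 CPM in the ANGPT2 male of batch 2, against 3.6 to 9.33 CPM in the others. Arsb was 343 CPM in the ANGPT2 female of batch 1, against 503 to 533 CPM in the others.

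The ANGPT2 effect differed between homeostatic microglia and oligodendrocytes in 2 genes, by a test of the difference itself (edgeR, adjusted p = 0.0219 for both). The difference of the log2 changes was -1.52 for Dscam and -1.34 for Pcdh15. Without the 51 members with 2 or more oligodendrocyte precursor markers, the log2 change in homeostatic microglia was -0.22 for Dscam and -0.78 for Pcdh15. The part of those nuclei in the difference to oligodendrocytes was not tested.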

How the results depend on the processing

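All alternatives kept the direction of the interferon share, but several moved it past the 0.05 threshold of the exact permutation test, which cannot go below 0.0556 within batches or 0.0667 with a control library left out. The difference was -22 points without thinning, -13.6 with 1 or more genes, -11.5 with 3 or more and -12.7 with the replicate block (batch), and -15 to -11.4 with 1 library left out. The difference in the share of homeostatic microglia among nuclei was 0.0208 points with all nuclei of at least 300 genes as the base and -1.25 to 0.189 with 1 library left out. In the homeostatic share of microglia it was -0.678 points at 1000 UMIs and -1.34 to 7.04 with 1 library left out. Nxph1 turned to 0.11 in members with no disease-associated gene, to 0.09 without nuclei with precursor markers and to 0.15 without all doubtful nuclei. The other 1060 of 1063 values of 54 genes over 21 settings kept their direction.

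Genes past the threshold numbered 0 in the report's test, 3 with the replicate block, 3 with sex as a term and 12 with both. They numbered 1 with DESeq2, 38 with no filter on low counts and 3 in members with 5 or more markers. Without nuclei with lymphocyte or border macrophage markers there were 4, and with 1 library left out 0 to 1. Leaving out the 870 members above 10 oligodendrocyte marker UMIs per 10000 gave 10 genes past the threshold, of 4154 tested. For the difference to the other microglia they numbered 2 with RLE size factors, 13 with no filter, 13 with the replicate block and 0 to 7 with 1 library left out. For the difference to oligodendrocytes they numbered 26 with no filter, 15 with the replicate block and 0 to 4 with 1 library left out. The cause of these shifts was not tested. The members' UMIs per library limit the test to 7269 genes and leave most interferon genes under the count filter. The removals of precursor nuclei and of all doubtful nuclei were added after seeing the data.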
